A study of Mus musculus with 20 samples.

Results

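Pocket proteins and subunits of the DREAM complex were described by the mRNA of 7 genes in primary mouse embryonic fibroblasts, the connective tissue cells that grow out of a dissociated embryo. The genes were Rb1, Rbl1, Rbl2, Lin37, Lin9, Mybl2 and Rbbp4. Every probe set that the platform annotation gives to 1 of these genes, by current or former symbol, was taken, which gave 12 probe sets of the 22626 tested, and 7 genes of the 12393 that have such a probe set. They were measured in 10 cultures from 5 E2F4 null embryos, with 2 cultures from each, and in 10 cultures from 3 wild type embryos, with 3 cultures each from embryos 1 and 2 and 4 from embryo 3. All embryos were taken at 13.5 days post coitum, and each culture was read on 1 one-colour Affymetrix array. The submitters' labels state neither the design of the null allele nor strain, sex, litter, passage or treatment. Embryo means were compared, with the embryo as the unit of replication, and differences between genotypes carry n = 5 and n = 3.

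The retinoblastoma family of pocket proteins holds Rb (Rb1), p107 (Rbl1) and p130 (Rbl2), which bind E2F transcription factors and silence cell cycle genes. In resting cells p130 or p107, together with E2F4 or E2F5 and a DP partner, joins the MuvB core, which contains LIN9, LIN37 and RBBP4, to form DREAM, a repressor of genes of both DNA replication and mitosis. When cells enter the cycle the pocket protein leaves, and the MuvB core binds B-Myb (Mybl2) and then takes part in switching on mitotic genes. E2F4 is thus a direct partner of several of these proteins, and fibroblasts are a common cell in which the family has been studied.

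Rbl1 and Mybl2 are known as genes that E2F factors regulate themselves, so their promoters are shown beside their values, with those of the other members that have an entry. RefSeq promoter entries (GRCm38.p6, 250 bases before to 50 after the annotated start) were matched for 5 of the 7 genes, all but Rb1 and Lin9. They were searched on both strands for 8 E2F words, namely TTGGCGC with TTGGCGG, the pair TTCGCGC with TTCGCGG, the pair TTCCCGC with TTCCCGG, and the pair TTGCCGC with TTGCCGG, which can overlap each other. Below are the 60 bases before the start of each gene, 5′ to 3′ along the gene's strand, with matched words in capitals.
Rbl1: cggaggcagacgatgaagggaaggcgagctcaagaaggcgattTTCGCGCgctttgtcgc
Mybl2: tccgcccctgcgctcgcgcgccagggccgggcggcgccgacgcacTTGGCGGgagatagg
Rbbp4: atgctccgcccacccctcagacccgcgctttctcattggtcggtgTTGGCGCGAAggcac
Rbl2: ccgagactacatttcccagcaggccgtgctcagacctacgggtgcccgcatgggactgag
Lin37: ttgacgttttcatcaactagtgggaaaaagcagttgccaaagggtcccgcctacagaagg

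The Rbl1 window is chr2:157204535-157204594 on the minus strand, and its word begins 17 bases before the start. The Mybl2 window is chr2:163054575-163054634 on the plus strand, with its word 15 bases before the start. In Rbbp4 (chr4:129335371-129335430, minus strand) a word on each strand, 15 and 12 bases before the start, overlap and are capitalised as 1 run. The windows of Rbl2 (chr8:91069997-91070056, plus strand) and Lin37 (chr7:30559647-30559706, minus strand) hold none, and Lin37 has a word on the opposite strand 17 bases after its start. Over the 300 bases of the entries, 4 of the 5 genes had an E2F word, against 17.8% of the 32851 entries. The words TTTGAA and TTCGAA of the cell cycle homology region, through which MuvB binds mitotic promoters, were found in Rbl2 and Lin37 only, 201 and 197 bases before the start, against 19.2% of entries. These matches are descriptions of the letters, and the arrays give no binding.

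Values are MAS5 signal intensities on a linear scale, and the 2% trimmed mean was 500.2 on every array. Fibroblast markers were high in the cultures, all 10 at or above the 80.6th percentile of signal. Of other cell types, the summed signal of 6 macrophage markers was 650 to 1597 in E2F4 null embryos and 728 to 1162 in wild type embryos, with Csf1r the highest of them. The 5 epithelial markers summed to 400.0 to 737 in E2F4 null embryos and 313 to 554 in wild type embryos, and their signal percentiles were 60.9 for Krt19, 48.6 for Krt18, 34.7 for Krt8, 14.8 for Cdh1 and 7.01 for Epcam. The 4 endothelial markers lay between the 9.15th and 34.8th percentile, and the 2 measured erythroid ones at or below the 10.6th. The part of these cells in the values below was not tested. In such bulk cultures fewer cells of a type and less RNA per cell cannot be told apart. The targeted gene, E2f4, had 166 ± 17.6 signal units in E2F4 null embryos (SD, n = 5) and 214 ± 6.47 in wild type embryos (n = 3), with every null embryo under every wild type one. Its log2 difference of -0.35 did not pass across all probe sets (limma adjusted p = 0.522), and whether its probes lie in the removed sequence is not known here.

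None of the 12 probe sets passed the test between genotypes, which does not show that their levels are alike. Differences, given throughout as E2F4 null minus wild type on the log2(signal + 16) scale, ran from -0.28 to 0.24, and the smallest limma adjusted p was 0.815, for Lin9. At an adjusted p under 0.05, 0 of 12 were called, against 0% of all 22626 probe sets, and at an unadjusted p under 0.05 again 0 of 12, against 7.1%. The difference lay below 0 for 7 of the 12, against 48.3% of all probe sets, with a median of -0.06 against 0.01 over all. For no member did the 5 null embryos separate from the 3 wild type embryos, while all null embryos lay above wild type for 2.56% of all probe sets and below for 2.61%. All 12 probe sets had a mean signal above the 40th percentile, between 75.5 and 5124. The plot of signals by culture shows that the embryos overlapped in every panel, and that wild type embryo 2 was lowest or highest of its genotype in most of them.

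**Figure D1:**
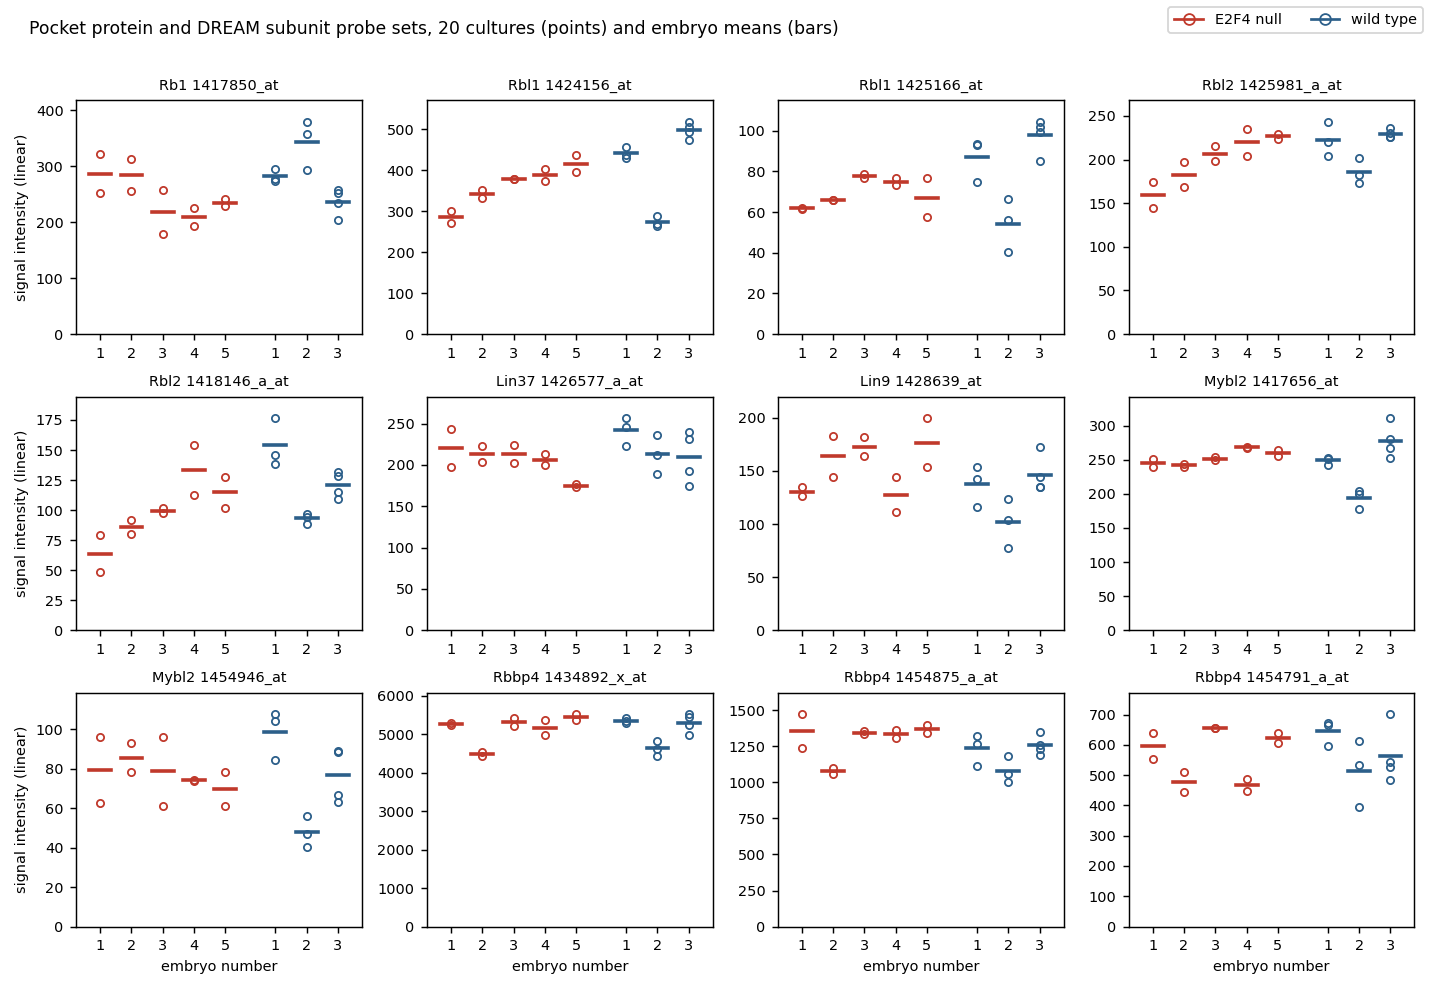
Signal intensity (linear, axis from 0) of the 12 probe sets by embryo, with E2F4 null embryos 1 to 5 in red and wild type embryos 1 to 3 in blue; circles are cultures and bars are embryo means. No panel separates the genotypes. For Rbl1 and Mybl2 the cultures of wild type embryo 2 lie below those of the other wild type embryos. For Rb1 its mean is the highest, but its cultures overlap those of wild type embryo 1.

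Among the pocket proteins, Rb1, which encodes the retinoblastoma protein, had 286, 284, 218, 209 and 235 signal units in E2F4 null embryos 1 to 5, against 282, 343 and 237 in wild type embryos 1 to 3 (probe set 1417850_at). The null embryos 3, 4 and 5 lay below every wild type embryo, and the others fell among them. The means were 246 ± 36.4 in E2F4 null embryos (SD, n = 5) and 287 ± 53.6 in wild type embryos (n = 3). The difference was -0.21 (SE 0.15, 95% interval -0.54 to 0.12, limma adjusted p = 0.828). It was -0.0798 without wild type embryo 2, which had the highest Rb1 signal of all.

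Rbl1, which encodes p107, had 285, 341, 378, 388 and 416 units in E2F4 null embryos, against 441, 274 and 498 in wild type embryos (1424156_at). Wild type embryos 1 and 3 lay above all null embryos, and wild type embryo 2 lay below all of them, so the lowest and the highest values were both wild type. The means were 362 ± 50.5 in E2F4 null embryos and 404 ± 116 in wild type embryos (SD, n = 5 and 3), a difference of -0.12 (interval -0.54 to 0.29, limma adjusted p = 0.935). The other Rbl1 probe set, 1425166_at, had 61.9, 66.0, 77.7, 75.0 and 67.1 units in E2F4 null embryos, against 87.1, 54.3 and 97.7 in wild type embryos, and a difference of -0.13. It has the same order of wild type embryos around the null ones. Without wild type embryo 2 the 2 probe sets differed by -0.37 (interval -0.68 to -0.06) and -0.34 (-0.66 to -0.03), with limma adjusted p = 0.495 and 0.529, so neither passed. These had the only unadjusted p under 0.05 of the 12 in that setting (0.0257 and 0.0370), against 8.76% of all probe sets. Without wild type embryo 3 instead, the differences were 0.0413 and 0.0131.

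Rbl2, which encodes p130, had 159, 183, 207, 219.6 and 227 units in E2F4 null embryos, against 223, 186 and 229.6 in wild type embryos (1425981_a_at). Null embryos 1 and 2 lay below the wild type range and the other null embryos within it. The difference was -0.09 (interval -0.39 to 0.20, limma adjusted p = 0.928). By 1418146_a_at the signals were 63.9, 85.8, 99.6, 134 and 115 in E2F4 null embryos, against 154, 93.4 and 121 in wild type embryos. This probe set gave the lowest difference of all members, -0.28, with the widest interval, -0.77 to 0.21 (limma adjusted p = 0.845). Null embryos 1 and 2 lay below every wild type embryo by both probe sets. With 1 embryo left out at a time this difference ran from -0.44 without wild type embryo 2 to -0.13 without wild type embryo 1, and that of 1425981_a_at from -0.18 without wild type embryo 2 to -0.0228 without null embryo 1.

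Of the MuvB subunits, Lin37, which is needed for repression by DREAM, varied least among embryos of the genes with a single probe set. It had 221, 213, 214, 206 and 175 units in E2F4 null embryos, against 242, 213 and 209 in wild type embryos (1426577_a_at). The difference was -0.10 (interval -0.33 to 0.14, limma adjusted p = 0.896). Null embryo 5 was the lowest of all, and without wild type embryo 1 the difference was -0.0328.

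Lin9, a scaffold of the MuvB core, was the member with the largest positive difference. It had 131, 164, 173, 128 and 177 units in E2F4 null embryos, against 137, 102 and 147 in wild type embryos (1428639_at). Null embryos 2, 3 and 5 lay above every wild type embryo, while null embryos 1 and 4 lay between wild type embryos 2 and 1. The means were 154 ± 23.5 in E2F4 null embryos and 129 ± 23.7 in wild type embryos (SD, n = 5 and 3), a difference of 0.24 (SE 0.16, interval -0.11 to 0.59, limma adjusted p = 0.815). Without wild type embryo 2, the lowest, it was 0.10.

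Rbbp4, a histone-binding protein shared by MuvB and several other chromatin complexes, had the narrowest interval of the 12 by 1434892_x_at. By this probe set it had 5262, 4480.15, 5322, 5165 and 5449.5 units in E2F4 null embryos, against 5351, 4628 and 5296 in wild type embryos. Only null embryo 2 and wild type embryo 2 stood below the rest, and the difference was 0.01 (interval -0.17 to 0.19, which is 0.891-fold to 1.14-fold). The signals by 1454875_a_at were 1357, 1081, 1346, 1333 and 1369.6 in E2F4 null embryos, against 1236, 1081 and 1259 in wild type embryos. Here 4 of 5 null embryos lay above every wild type embryo, with a difference of 0.12 (interval -0.09 to 0.33, limma adjusted p = 0.844), which was 0.0518 without wild type embryo 2 and 0.18 without null embryo 2. By 1454791_a_at the embryos ran from 467 to 655 in E2F4 null and from 513 to 645 in wild type, and the difference was -0.02. The suffix of 1434892_x_at marks probes that can also match other sequences, so its signal may not be from Rbbp4 alone.

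Mybl2, which encodes B-Myb, the partner that takes the place of the pocket protein on MuvB, had 245, 242, 252, 268 and 259 units in E2F4 null embryos, against 249, 194 and 278 in wild type embryos (1417656_at). The null embryos spanned a narrow range inside the wild type one. The means were 253 ± 10.7 in E2F4 null embryos and 240.0 ± 42.8 in wild type embryos (SD, n = 5 and 3), a difference of 0.09 (interval -0.17 to 0.35, limma adjusted p = 0.922). By 1454946_at the signals were 79.4, 85.7, 78.7, 74.1 and 69.8 in E2F4 null embryos, against 98.9, 47.9 and 76.8 in wild type embryos, with a difference of 0.08. Wild type embryo 2 was again the lowest of all, and without it the differences were -0.0503 and -0.15. The plot of differences sets these values beside those of all members, and every interval on 8 embryos spans 0.

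**Figure D2:**
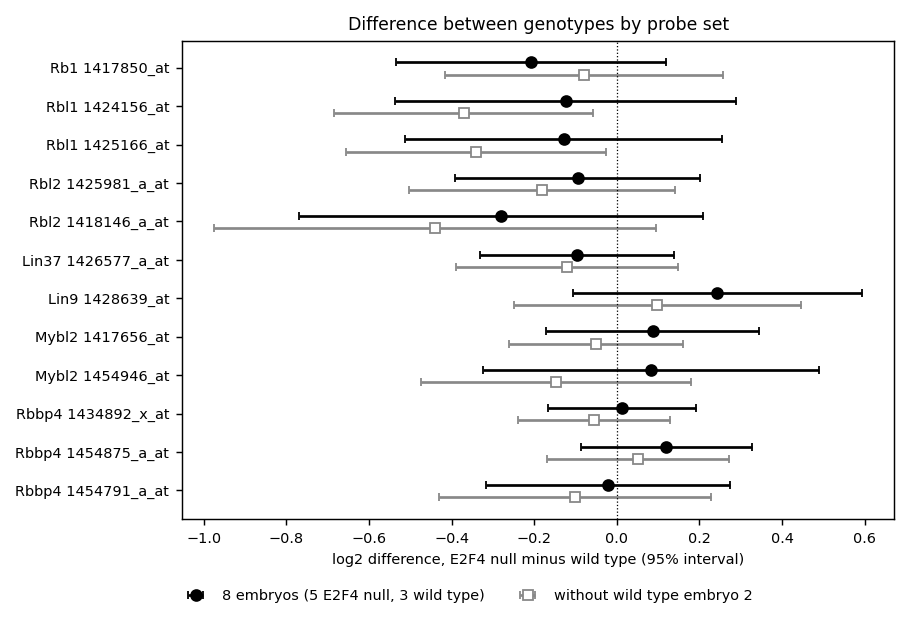
Log2 difference between genotypes, E2F4 null minus wild type, for each probe set with its 95% interval from limma; filled circles use all 8 embryos and open squares leave out wild type embryo 2. All 12 intervals on 8 embryos span 0. Without that embryo those of the 2 Rbl1 probe sets lie below 0, while their limma adjusted p stays at 0.495 and 0.529. That embryo had the lowest Rbl1 signal of the 8, so leaving it out lowers the Rbl1 differences by construction. Without wild type embryo 3 instead they were 0.0413 and 0.0131.

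Probe sets of the same gene gave like differences for Rbl1 and Mybl2, 0.00508 and 0.00479 apart, and less alike ones for Rbl2 (0.19 apart) and Rbbp4 (up to 0.14 apart). As a description over the 8 embryo means, which share the same RNA, the probe sets of Rbl1 had r = 0.91 (rho = 0.90) and those of Rbl2 r = 0.91 (rho = 0.81). The Mybl2 probe sets agreed less, with r = 0.66 and rho = -0.17, since both put wild type embryo 2 lowest but ordered the other embryos differently. Cultures of 1 embryo ranged widely by 1454946_at, from 62.7 to 96.1 in null embryo 1, while by 1417656_at they were 239 and 251. For Rbbp4, 1434892_x_at and 1454875_a_at had r = 0.90, and 1454791_a_at had r = 0.73 and 0.55 with them. Null embryo 4 was the lowest null embryo by 1454791_a_at and not by the other Rbbp4 probe sets.

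Several members differed between embryos of 1 genotype, Rbl1 by 1424156_at in both genotypes. A limma F test over cultures asks whether embryos differ beyond the spread of cultures from 1 embryo. At an adjusted p under 0.05, 2 of 12 probe sets passed in E2F4 null, against 8.96% of all probe sets, and 7 of 12 in wild type, against 27.5%. All 12 lie above the 40th percentile of signal. With probe sets under it left out, 2 of 12 passed in E2F4 null, against 18.3% of those kept, so that count is near the share over all. Whether the genotypes differ in the spread between embryos was not tested. In E2F4 null the 2 calls were Rbl1 by 1424156_at (limma adjusted p = 0.0434) and Rbbp4 by 1454791_a_at (0.0242). Null embryo 1 had the lowest Rbl1 signal of that genotype, and null embryos 2 and 4 the lowest Rbbp4 signals. The Rbl1 call was lost without null embryo 1, 2, 4 or 5 and the Rbbp4 call without null embryo 2, 3 or 4.

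Rbl1 by 1424156_at had the smallest p in wild type (limma adjusted p = 4.63e-06), with 430 to 457 units in the cultures of embryo 1, 264 to 289 in those of embryo 2 and 473 to 519 in those of embryo 3. No culture of an embryo overlapped those of another. The SD between cultures was 0.05 (log2), and that between the wild type embryos 0.44. The other wild type calls were Rb1 (limma adjusted p = 0.00972), Rbl1 by 1425166_at (0.0148), Rbl2 by 1418146_a_at (0.0115), Mybl2 by 1417656_at (0.00527) and 1454946_at (0.0102), and Rbbp4 by 1434892_x_at (0.0139). Without wild type embryo 2, 0 of 12 passed, against 6.04% of all probe sets. Without embryo 1, 6 of 12 passed, against 24.9%, and without embryo 3, 5 of 12 passed, against 19.2%. Lin37 and Lin9 did not pass in either genotype, though with probe sets under the 40th percentile left out Lin9 passed in wild type (limma adjusted p = 0.0435), which made 8 of 12, against 46.7% of the probe sets kept.

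**Figure D3:**
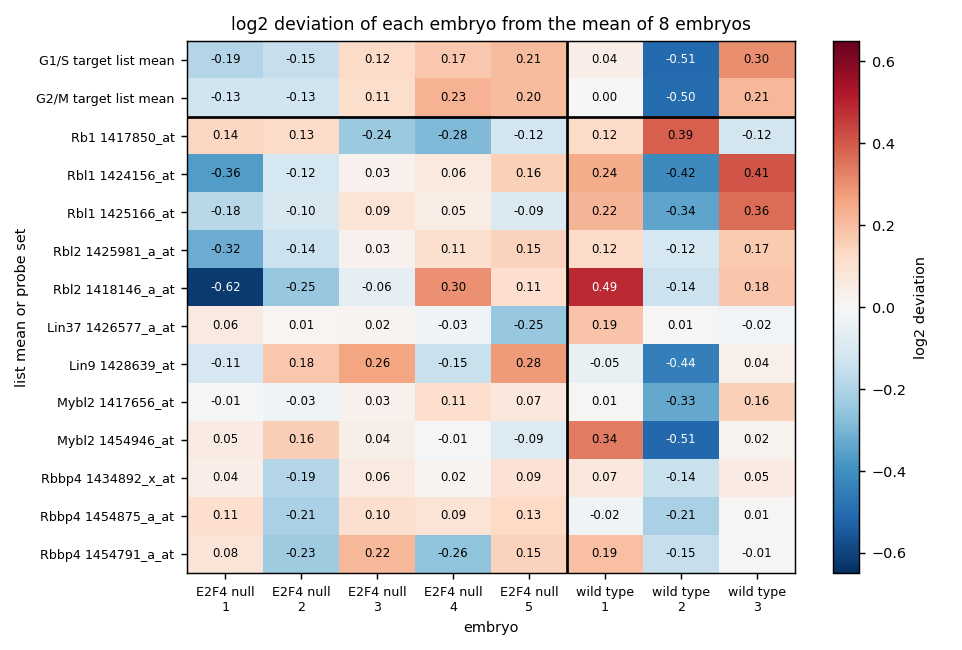
Log2 deviation of each embryo from the mean of the 8 embryos, for the mean of the 2 cell cycle target lists (top rows) and the 12 probe sets; columns are E2F4 null embryos 1 to 5 and then wild type embryos 1 to 3. Wild type embryo 2 deviates by -0.51 and -0.50 in the lists, by -0.42 and -0.34 in Rbl1, by -0.33 and -0.51 in Mybl2 and by 0.39 in Rb1.

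Wild type embryo 2, low in Rbl1 and Mybl2, was also low in cell cycle genes that DREAM and B-Myb are known to act on. The mean of 21 measured G1/S genes of 23 listed, such as Mcm6 and Cdc6, deviated by -0.19, -0.15, 0.12, 0.17 and 0.21 in E2F4 null embryos, and by 0.04, -0.51 and 0.30 in wild type embryos. The mean of 23 measured G2/M genes of 24 listed, such as Cdk1 and Plk1, deviated by -0.13, -0.13, 0.11, 0.23 and 0.20 in E2F4 null embryos, and by 0.00384, -0.50 and 0.21 in wild type embryos. Wild type embryo 2 was lowest in both lists, and E2F4 null embryos 1 and 2 came next. The heat map of deviations places these rows above the members.

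Mybl2 followed both lists most closely among the members. Over the 8 embryo means, by the probe set of highest signal, 14 relations of 7 members with 2 lists were computed, with exact permutation p-values adjusted over the 14. Mybl2 had r = 0.95 with the G2/M list and r = 0.94 with the G1/S list (rho = 0.95 for both; permutation p = 0.000149 and 0.000174, adjusted p = 0.00122 for both, and adjusted p = 0.00799 for rho). Without the 2 embryos farthest from the list median, wild type 2 and E2F4 null 1, r was 0.88 and 0.90, but these had adjusted permutation p = 0.117 over the 6 embryos left. By 1454946_at r was 0.51 with both lists (adjusted permutation p = 0.223 for G1/S and 0.225 for G2/M), with rho = -0.17 for both, and without the same 2 embryos r was -0.62 with the G1/S list and -0.74 with the G2/M list. The relation is thus that of 1417656_at, and the other Mybl2 probe set turned direction. The probe sets and the lists share arrays and scaling, and with 5 and 3 embryos no value within a genotype is given.

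Rb1 ran the other way. Its signal was highest in wild type embryo 2, next in E2F4 null embryos 1 and 2 and wild type embryo 1, and lower in the embryos with high list means. It had r = -0.92 with the G2/M list (rho = -0.90, permutation p = 0.00186 and 0.00456, adjusted p = 0.00651 and 0.0213) and r = -0.88 with the G1/S list (rho = -0.79, permutation p = 0.00459 and 0.0279, adjusted p = 0.0128 and 0.0652). Without the same 2 embryos r was -0.83 and -0.69 (adjusted permutation p = 0.136 and 0.201).

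Rbl1 had r = 0.90 with the G1/S list (rho = 0.86, permutation p = 0.00159 and 0.0107, adjusted p = 0.00651 and 0.03) and r = 0.82 with the G2/M list (rho = 0.76, permutation p = 0.0110 and 0.0368, adjusted p = 0.0258 and 0.0735). Without the same 2 embryos r was 0.74 and 0.54 (adjusted permutation p = 0.181 and 0.378). Rbl2 had r = 0.76 with the G1/S list (rho = 0.86, permutation p = 0.0210 and 0.0107, adjusted p = 0.0419 and 0.03), which was 0.88 without the same 2 embryos (adjusted permutation p = 0.136), and r = 0.69 with the G2/M list (adjusted permutation p = 0.08). By 1418146_a_at the Rbl2 relation to G1/S genes was weaker, at r = 0.57 (adjusted permutation p = 0.167). Lin9, Rbbp4 and Lin37 did not pass with either list, with r = 0.65 for Lin9, 0.71 for Rbbp4 and -0.34 to -0.31 for Lin37 (adjusted permutation p = 0.08 to 0.443). Lin9 had r = -0.13 and -0.18 without the 2 embryos, so its value on all 8 rests on them.

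**Figure D4:**
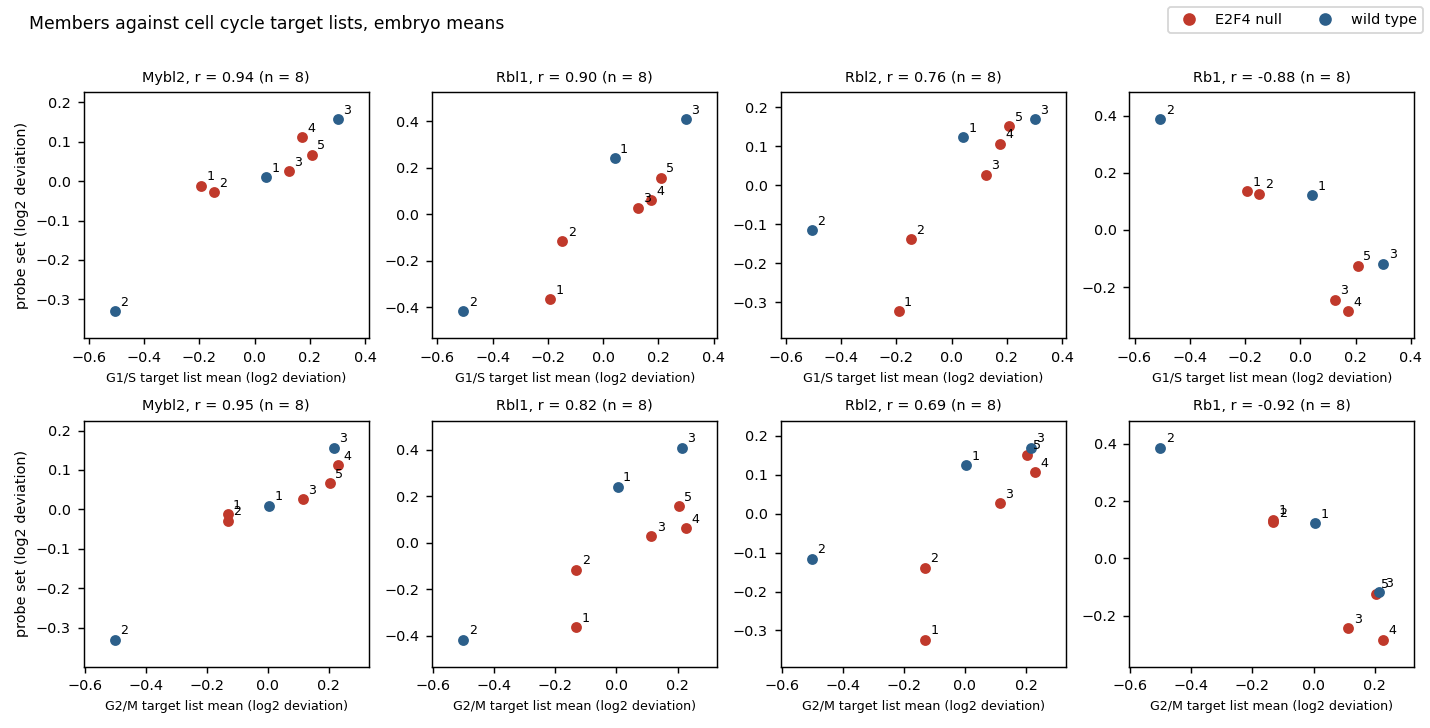
Log2 deviation of Mybl2, Rbl1, Rbl2 and Rb1 (vertical axes) against the mean log2 deviation of the G1/S list (top) and the G2/M list (bottom) over 8 embryo means; numbers are embryo numbers, E2F4 null in red and wild type in blue. Mybl2 is higher in embryos with a higher list mean (r = 0.94 and 0.95) and Rb1 is lower (r = -0.88 and -0.92), with wild type embryo 2 at the far left of every panel.

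With the G1/S list mean of each embryo as a covariate in limma, a setting added once the values were known, no member passed either. DREAM is known to act on the listed genes, so the list mean may itself depend on genotype, which this fit cannot separate. Rbl1 by 1424156_at then differed by -0.21 (interval -0.38 to -0.05, unadjusted limma p = 0.0145, adjusted p = 0.300), the only one of the 12 with an unadjusted p under 0.05, against 11.3% of all probe sets. The other Rbl1 probe set differed by -0.20, with an interval of -0.47 to 0.08 that spans 0. The lowest difference was that of Rbl2 by 1418146_a_at, -0.36 (interval -0.74 to 0.03, unadjusted limma p = 0.0643). Rb1 differed by -0.15 (interval -0.34 to 0.04), Lin9 by 0.20 (-0.10 to 0.49) and Mybl2 by 0.04 (-0.13 to 0.21) in this fit. E2F4 null embryo 3, with a G1/S list mean of 0.12, had 378 units of Rbl1, against 441 in wild type embryo 1 with a list mean of 0.04. That is only 1 of the possible pairs of embryos, and it was not tested.

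The genes whose embryo means were most like each member were found among 7694 genes, as a description over 8 embryos. For Mybl2 they were Tacc3, a protein of the mitotic spindle, Kif23, a kinesin of cytokinesis, and Iqgap3, with r = 0.993, 0.993 and 0.984. For Rb1 they were Tnfrsf23, St3gal3 and Nbl1 (r = 0.978 to 0.985), and for Rbl1 Bicc1, Cbfa2t2 and the histone variant gene H2az2 (0.976 to 0.985). Rbl2 was nearest to C1qtnf12, Fam43a and the laminin gene Lama4 (0.969 to 0.972). Lin9 was nearest to the kinase gene Araf, the histone deacetylase gene Hdac2 and Thoc1 (0.950 to 0.963), Lin37 to Bptf, Pkp1 and Ulk1 (0.957 to 0.976) and Rbbp4 to Pwp2, Ssr1 and Smad1 (0.959 to 0.967). The likeness was not tested.

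The partners of the members were listed as 23 genes, of which 18 were measured and 0 passed, against 0% of all probe sets. Their median difference was 0.000352, with 10 above and 8 below 0. Of the E2F genes, the activator E2f1 differed by -0.01, E2f3 by -0.04, E2f5, the other E2F of DREAM, by 0.12, E2f6 by -0.11 and E2f8 by -0.03, and the DP gene Tfdp1 by 0.01 (limma adjusted p = 0.867 to 0.994). Rbbp7, the close relative of Rbbp4, differed by 0.05, Foxm1, which joins B-Myb on mitotic promoters, by 0.21, and Dyrk1a, the kinase that promotes DREAM assembly, by 0.05. Among the cyclins and kinases that phosphorylate pocket proteins, Cdk6 had 34.5 ± 13.9 units in E2F4 null embryos and 69.7 ± 9.60 in wild type embryos (SD, n = 5 and 3). Its difference of -0.78 had a limma adjusted p = 0.501. Its embryos did not overlap between genotypes, which held for 1 of 18 partners. Over all probe sets the null embryos lay wholly above for 2.56% and wholly below for 2.61%, so 1 of 18 is near the share over all. The Cdk6 signal lies near and under the 40th percentile, 69.3 units. Cdk4 differed by 0.15, Ccnd1 by 0.000695, Ccnd2 by -0.06, Ccnd3 by -0.04, Cdk2 by 0.07, Ccna2 by 0.12, Ccne1 by 9.66e-06 and Ccne2 by -0.05.

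The target lists did not pass for any gene either. On all 8 embryos 23 of 23 measured G2/M genes lay above 0, with a median of 0.14, and 16 of 21 G1/S genes, with a median of 0.09, against 51.7% of all probe sets and a median of 0.01. This direction rested on wild type embryo 2: without it 7 of 23 G2/M genes lay above 0, with a median of -0.0434, and 2 of 21 G1/S genes, with a median of -0.12, against 54.4% of all probe sets and a median of 0.02. The smallest unadjusted limma p were those of Anln (0.21, p = 0.137) and Bub1b (0.27, p = 0.140) in the G2/M list and of Rfc4 (0.35, p = 0.145) and Rrm1 (0.15, p = 0.215) in the G1/S list.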

How the data were processed

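RNA from 20 cultures was measured on 1 array each. The authors deposited 1 linear signal intensity for each probe set and array, computed with MAS5, per the submitters' processing notes. No version or scaling target of MAS5 was found in the labels. The common trimmed mean shows that arrays had been scaled, which hides a change shared by all genes. The number of arrays and embryos limits the precision.

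Of 22690 probe sets 64 controls were dropped. In the platform annotation 20380 had 1 symbol, 691 several and 1555 none, and 20351 of the 20380 matched the RefSeq table of GRCm38.p6 by gene identifier. Symbols and chromosomes are of that table. Values were converted to log2(signal + 16), which understates the change of low genes, and the cultures of an embryo were averaged. The first number in a title was read as the embryo, from the design text.

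The genotype test used limma 3.58.1 in R 4.3.3 (lmFit, eBayes with trend, two-sided, Benjamini-Hochberg over 22626 probe sets, no filter). The embryo F test used cultures within 1 genotype. Each list gene, and each member in a correlation, is its probe set of highest mean signal. Likeness was searched among genes at or above the 40th percentile of signal.

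Members, lists and tests were chosen with earlier results of these data known. All members, partners and E2f4 may be named, with the 2 genes of smallest p per target list and the 3 genes most like each member; Mcm6, Cdc6, Cdk1 and Plk1 are named as examples of the lists, chosen after their values were seen. On simulated data for 22626 probe sets the genotype test recovered 29 of 63 probe sets changed by 0.5 (log2), 64 of 69 by 1 and 67 of 68 by 2, with 9 false among 169 calls. At the same sizes the E2F4 null F test recovered 15 of 61, 45 of 61 and 76 of 78, and the wild type one 38 of 70, 70 of 74 and 54 of 56. Features were simulated independently. The adjusted p depends on how many probe sets change. The simulated genotype test gave 169 calls, against 0 of 22626 probe sets in the data. In the data Cdk6 differed by -0.78 with limma adjusted p = 0.501, and E2f4 by -0.35 with 0.522. The recovery of the genotype test thus holds for the simulated number of changed probe sets. Its power in these data was not measured. The F test has 10 cultures a genotype but 5 embryos in one and 3 in the other. For it only embryo 1 of each genotype was shifted, and no other spread between embryos was simulated. In the data 8.96% of all probe sets differed between E2F4 null embryos and 27.5% between wild type embryos. The recovery of the F test thus holds for that simpler setting.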

Additional observations from a re-analysis of the deposited data

Results flagged for a closer look

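In 3 of the 12 probe sets, 1 E2F4 null embryo lay far from the other 4 by Dixon's ratio, the gap to the nearest embryo over the whole range, on the log2 scale. Chance flags about 1 in 20 such groups, and groups of 3 were not tested. For Rbbp4, null embryo 2 was the lowest by 1454875_a_at (1081 units, ratio 0.887) and by 1434892_x_at (4480.15 units, ratio 0.723), 2 probe sets of the same RNA. For Lin37, null embryo 5 was the lowest by 1426577_a_at (175 units, ratio 0.723).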

How the results depend on the processing

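No member was called between genotypes under any alternative run, and 5 to 10 of the 12 lay below 0 wherever all 12 were tested. Over all probe sets the number called was 0, and it was 1 with 1 probe set per gene above the 40th percentile. It was 13 with the G1/S list mean as a covariate (chosen after seeing the data), and 0 to 5 with an embryo left out. Over cultures it was 220 with a random embryo block and 88 with the culture number as a replicate block. Both of these took the 20 cultures as observations, and the former used 1 correlation (0.306) for cultures of the same embryo. Their residual degrees of freedom come from cultures and not from the 8 embryos, so 220 and 88 cannot be set beside the 0 on embryo means. Near-zero differences turned: Rbbp4 1434892_x_at was -0.0118 with quantile normalization, -0.0125 with the covariate, -0.00394 with cultures 1 and 2 only or the culture number as a replicate block, and -0.0207 with the embryo number as a replicate block, where 1454791_a_at was 0.0116. With an embryo left out, Rbl1 ran from -0.37 to 0.0413 and -0.34 to 0.0131, Mybl2 from -0.0503 to 0.19 and -0.15 to 0.28, and Rbbp4 from -0.0547 to 0.0608 and -0.10 to 0.0698; the other 6 probe sets kept their direction. Same-numbered embryos of the genotypes deviated together by r = 0.08, 0.46 and 0.23. Differently numbered embryos were not compared, so these values cannot decide whether the numbers mark pairs. The main test did not take the numbers as pairs. With the embryo number as a replicate block, null embryos 4 and 5 do not enter the difference. Rbl2 then differed by -0.49 (1418146_a_at) and -0.20 (1425981_a_at), with limma adjusted p = 0.665 and 0.759. With an embryo left out, 0 to 2 of the 12 differed between E2F4 null embryos, against 4.45% to 8.7% of all probe sets. Between wild type embryos 0 to 6 of 12 differed, against 6.04% to 24.9%. With the 40th percentile filter 8 of 12 differed in wild type, against 46.7% of the probe sets kept, and the filter added Lin9. Genes above 0 numbered 2 to 20 of 21 in the G1/S list and 7 to 23 of 23 in the G2/M list with an embryo left out, an alternative added after the values were seen. Called correlations lost their call with rho for Rb1 and G1/S (-0.79) and Rbl1 and G2/M (0.76), with the other probe set for Rbl1 and G2/M (0.73), Rbl2 and G1/S (0.57) and Mybl2 (0.51 with both lists), and without 2 embryos in all 7 (Mybl2 0.90 and 0.88, Rbl1 0.74 and 0.54, Rbl2 0.88, Rb1 -0.69 and -0.83); Lin9 turned to -0.13 and -0.18. The cause of these changes was not tested.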
